A study of Mus musculus with 8 samples.

Results

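Embryonic stem cells that received a siPOOL against Wiz were compared with cells that received a negative control siPOOL. A siPOOL is a mixture of many small interfering RNAs against 1 transcript. The comparison took 4 of the 8 libraries of the study: siWiz replicates 1 and 2, and siNeg replicates 1 and 2. The other 4 libraries came from cells treated with siPOOLs against the transcription factors Zic2 and Tfap4 (siZic2 and siTfap4, 2 libraries each). All cells, the siNeg cells included, were mouse embryonic stem cells of 129/Ola background with a knockout of miR-290-295, a microRNA cluster of high abundance in wild-type embryonic stem cells. They grew on gelatin in medium with serum and the cytokine LIF, which holds them in self-renewal, were transfected by lipid at 5 nM siPOOL, and were harvested 36 h later. The labels give the libraries as biological duplicates of 1 genotype and do not say whether the knockout line is 1 clone. The siPOOL treatment lowers a transcript and does not delete the gene, and no cells without any siPOOL were among the 8 libraries.

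QuantSeq 3′ libraries were made from 500 ng of RNA each, so that each count is a read at the polyadenylated end of a transcript. The siWiz libraries held 11200948 and 10544436 counted reads, the siNeg libraries 11395211 and 10795092, and all 8 between 8326675 and 13788856. Of 55421 genes in the table, 14647 passed the filter on low counts. Levels are given as CPM, counts divided by the TMM-scaled library size, and a pair of CPM values is always replicate 1 and then replicate 2. A fold change is the log2 of siWiz over siNeg. Its standard error (SE) and its p come from edgeR's quasi-likelihood test with 1 mean per group over all 8 libraries. A gene was called when its p, adjusted by Benjamini-Hochberg over the 14647 genes, was under 0.05. With 2 libraries a group, the p-values measure the spread between duplicates. The libraries carried the markers of embryonic stem cells in every sample: Zfp42 stood at 455 and 295 CPM in siWiz and 341 and 237 CPM in siNeg, and Pou5f1 at 17.6 and 22.9 CPM in siWiz and 24.4 and 27.5 CPM in siNeg. In a principal component analysis of all 8 libraries the first axis took 59.8% of the variance. The siWiz libraries lay at 36.4 and 1.85 on it and the siNeg libraries at 32.9 and 15.6, with the siTfap4 libraries at the other end (-103 and -57.7). On both sides replicate 2 lay nearer to siTfap4 than replicate 1.

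Wiz (widely interspaced zinc finger protein) is a nuclear zinc finger protein that binds the histone methyltransferases Ehmt2 (G9a) and Ehmt1 (GLP) and links them to corepressors of the CtBP family. The 2 enzymes work as a pair and place mono- and dimethylation on lysine 9 of histone H3 (H3K9), a mark of silent chromatin. In mouse embryonic stem cells, enzymes of H3K9 methylation are known to hold down germline genes, endogenous retroviruses and the genes of the 2C-like state. In that state a few cells of a culture express genes of the embryo at the 2-cell stage, such as the Zscan4 zinc finger genes and the Usp17l deubiquitinase genes. Wiz is also known to occupy many sites together with CTCF, the zinc finger protein at the base of chromatin loops.

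The 3 microRNAs below, absent from all these cells, share a seed, bases 2 to 8 of the mature strand, which pairs with target transcripts. They were picked for that shared seed, and not every microRNA of the cluster has it. The 3 mature sequences below are shown because their loss is common to siWiz and siNeg cells (RefSeq, GRCm38.p6, 5′ to 3′, seed in capitals).
mmu-miR-291a-3p (chr7:3218968-3218989, plus strand): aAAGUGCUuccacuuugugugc
mmu-miR-294-3p (chr7:3220691-3220712, plus strand): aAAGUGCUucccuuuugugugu
mmu-miR-295-3p (chr7:3220815-3220837, plus strand): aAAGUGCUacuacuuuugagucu

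The 5′ flanks are shown for 4 genes of the Usp17l and Zscan4 families, described below, whose copies stood higher in siWiz. Each run is 250 bases that end just before the RefSeq start of the gene (GRCm38.p6, 5′ to 3′ on the strand of the gene). TATAAA, the letters of a TATA box, was searched on both strands and is in capitals.
Usp17la (chr7:104856766-104857015, plus strand): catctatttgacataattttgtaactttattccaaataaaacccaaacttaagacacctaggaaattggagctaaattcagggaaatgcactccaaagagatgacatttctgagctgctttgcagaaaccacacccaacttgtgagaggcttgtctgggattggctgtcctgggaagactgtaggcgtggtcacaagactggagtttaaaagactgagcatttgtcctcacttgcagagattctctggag
Usp17lc (chr7:103416446-103416695, plus strand): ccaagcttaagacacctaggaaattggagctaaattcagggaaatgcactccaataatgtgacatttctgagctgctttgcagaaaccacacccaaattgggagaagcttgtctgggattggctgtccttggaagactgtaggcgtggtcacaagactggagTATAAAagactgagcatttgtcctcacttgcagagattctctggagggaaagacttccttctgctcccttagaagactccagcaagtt
Zscan4c (chr7:11005495-11005744, plus strand): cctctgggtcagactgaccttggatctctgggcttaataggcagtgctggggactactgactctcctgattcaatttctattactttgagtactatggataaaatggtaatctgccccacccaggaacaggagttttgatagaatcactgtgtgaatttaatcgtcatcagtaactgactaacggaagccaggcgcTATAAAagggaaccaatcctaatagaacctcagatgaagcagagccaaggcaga
Zscan4d (chr7:11166149-11166398, minus strand): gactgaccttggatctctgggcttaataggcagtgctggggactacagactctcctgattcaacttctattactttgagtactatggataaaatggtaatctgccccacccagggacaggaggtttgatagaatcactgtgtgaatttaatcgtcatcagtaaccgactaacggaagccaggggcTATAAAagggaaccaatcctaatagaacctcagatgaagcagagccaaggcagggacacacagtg
The Usp17la and Usp17lc runs were identical at 198 of 208 aligned bases (95.2%), and the Zscan4c and Zscan4d runs at 232 of 238 (97.5%). TATAAA occurred once on the gene strand in Usp17lc, Zscan4c and Zscan4d and in neither strand of Usp17la. It was also in neither strand of the flank of Gm21761, a chromosome 13 family gene whose flank was searched in the same way. The flanks of Usp17lc and Gm21761 lie inside the counted gene models, whose positions are given below. They may therefore not be the promoters of those models. Among 32851 RefSeq flanks of 250 bases, 7.6% held it on the gene strand and 12.4% on either strand.

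Wiz was the gene with the smallest p in the comparison. The gene (ENSMUSG00000024050) lies on GRCm38 chromosome 17, 32354055 to 32389439, minus strand. It was counted 188 and 206 times in siWiz and 600 and 480 times in siNeg. These are 16.8 and 19.7 CPM in siWiz, 43.9 and 37.5 CPM in siZic2, 30.1 and 35.9 CPM in siTfap4 and 49.9 and 46.1 CPM in siNeg. Both siWiz libraries lay below all 6 others, and siTfap4 lay between siWiz and siNeg. The mean was 18.2 ± 2.06 CPM in siWiz and 48 ± 2.65 CPM in siNeg (SD, n = 2 each), or 37.95% of the siNeg level (95% confidence interval 26.5 to 54.3%), with a log2 fold change of -1.40 (SE 0.24). The adjusted p over all genes was 0.708 in edgeR and 0.00315 in DESeq2, an alternative count model. Without any 1 of the 8 libraries the fold change of Wiz stayed between -1.52 and -1.28. In bulk RNA, a partial loss in every cell and a full loss in some of the cells cannot be told apart.

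The other targeted transcripts were not called. Tfap4 had 28.6 and 32.9 CPM in siWiz and 33.4 and 37.1 CPM in siNeg (log2 -0.20, SE 0.24, edgeR adjusted p = 1). Zic2, a low transcript, had 2.59 and 2.01 CPM in siWiz and 4.49 and 2.21 CPM in siNeg (log2 -0.55, SE 0.45, edgeR adjusted p = 1), and siNeg replicate 1 was the only one of the 4 above 3 CPM. Tested genes within 200 kb of Wiz included Akap8l, Akap8, Notch3, Cyp4f16, Cyp4f39 and Cyp4f17, and edgeR called none of these 6 (all adjusted p = 1). Akap8, which encodes a nuclear anchoring protein of protein kinase A, had 89.2 and 79.9 CPM in siWiz and 82.96 and 71.2 CPM in siNeg. Its relative Akap8l had 35.05 and 41.1 CPM in siWiz and 33.6 and 34.9 CPM in siNeg. The log2 fold changes of these 6 neighbours lay between -0.47 and 0.30.

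**Figure D1:**
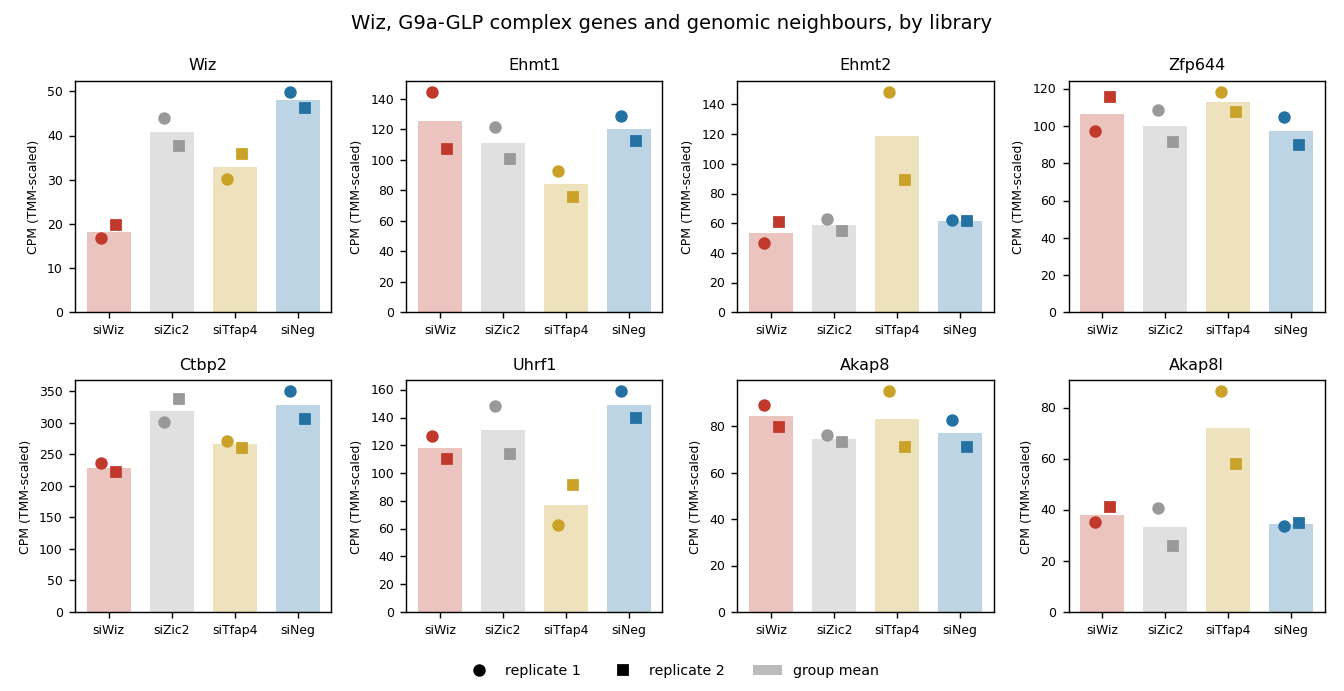
Levels of Wiz, 5 genes of the G9a-GLP complex or its chromatin partners, and 2 genomic neighbours in the 8 libraries. The y axes give CPM after TMM scaling and start at 0, bars are means of 2 libraries, circles are replicate 1 and squares replicate 2. Only for Wiz and Ctbp2 do both siWiz libraries lie below all 6 other libraries.

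Across all genes no difference passed the threshold in edgeR, which called 0 of 14647 genes (0%). At an unadjusted p under 0.05 there were 139 genes higher in siWiz (0.949%) and 127 lower (0.867%), or 266 in all (1.82%). DESeq2 called 1 gene (0.00683%), which was Wiz, and had 182 genes at an unadjusted p under 0.05 (1.24%). The median log2 fold change of all genes was -0.00107. The biological coefficient of variation was 22.2%, and the median half-width of a 95% confidence interval was 0.67 on the log2 scale. For the 6466 genes with at least 20 CPM it was 0.54, a 1.46-fold difference. Smaller differences could mostly not be resolved with 2 libraries a group. These intervals are unadjusted and for 1 gene at a time, and a call over all 14647 genes asks for more. Wiz, 2.63-fold lower in siWiz, was not called by edgeR, so the 0 calls do not mean that larger differences are absent.

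Genes were therefore ranked by how well they separated both siWiz libraries from both siNeg libraries. The gap of a gene is the smallest of its 4 pairwise differences between a siWiz and a siNeg library, on a log2 CPM scale with a prior count of 2. A gap above 0 means that the 2 sides do not overlap. In siWiz, 1799 genes lay above siNeg without overlap (12.3%) and 1879 lay below (12.8%). A gap of at least 1.5-fold was met by 144 genes higher in siWiz (0.983%) and 92 lower (0.628%). The genes with the largest gaps among the 9648 with a mean of at least 5 CPM are given below as values, chosen by that rank. Scarcer genes such as Usp17lc, Krt222 and Xkrx had larger gaps and are described with the smallest p-values. All had an edgeR adjusted p of 1 except Wiz.

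**Figure D2:**
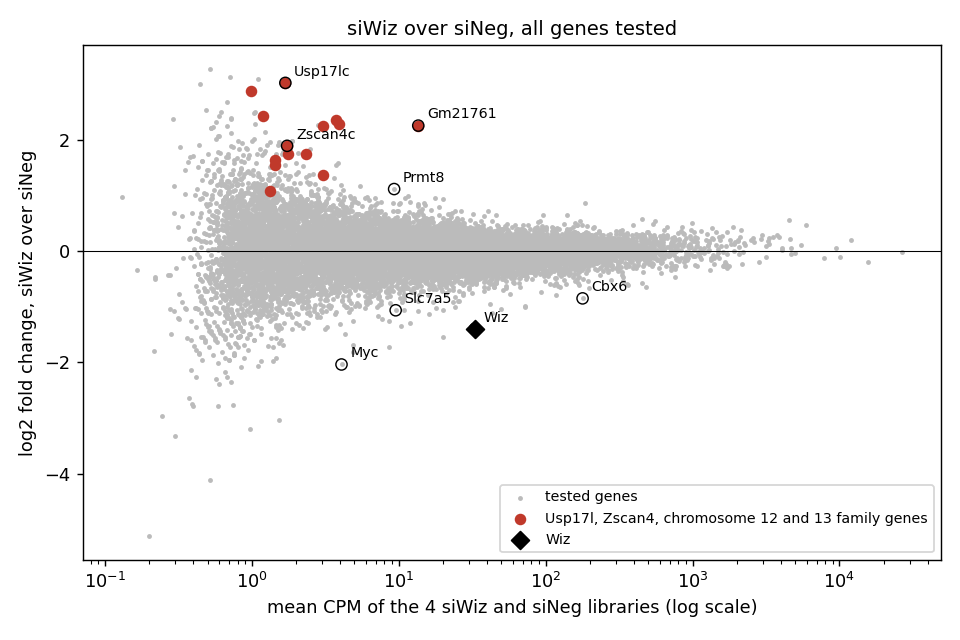
Log2 fold change of siWiz over siNeg (y axis) against the mean CPM of the 4 libraries (x axis, log scale) for the 14647 tested genes. Wiz is the black diamond, and red points are 14 tested genes of 4 multicopy families chosen after their values were seen. Circled points are the genes labelled by name, Wiz and some of the family genes among them.

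Among genes of at least 5 CPM, Prmt8 had the largest gap above siNeg. Prmt8 is an arginine methyltransferase known mainly from neurons (chromosome 6, 127689011 to 127769472, minus strand). It had 12.8 and 12.6 CPM in siWiz and 5.07 and 6.73 CPM in siNeg (log2 1.11, SE 0.31, edgeR adjusted p = 1). The 2 siWiz values were nearly alike and also lay above siZic2 (4.85 and 6.56 CPM) and siTfap4 (10.3 and 9.26 CPM). Igsf21, a synaptic adhesion protein of the immunoglobulin family, had 6.599 and 8.404 CPM in siWiz and 3.16 and 3.56 CPM in siNeg. Srl, the calcium-binding sarcalumenin, had 8.29 and 8.21 CPM in siWiz and 3.99 and 4.805 CPM in siNeg, but siTfap4 was higher still (12.5 and 10.1 CPM). Prelid2, a gene of the PRELI domain family, had 20.4 and 25.9 CPM in siWiz and 11.8 and 12.2 CPM in siNeg (log2 0.95, SE 0.28).

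Further genes of that rank came from membrane traffic, the cytoskeleton and mitochondria. Retreg3, a regulator of endoplasmic reticulum turnover, had 6.51 and 6.78 CPM in siWiz and 3.41 and 3.84 CPM in siNeg. Its siTfap4 values were higher still (9.3 and 8.09 CPM). Ehd3, a protein of endosome recycling, had 8.29 and 9.74 CPM in siWiz and 4.07 and 5.29 CPM in siNeg. Iqgap2, a scaffold of the actin cytoskeleton, had 14.1 and 17 CPM in siWiz and 8.31 and 8.55 CPM in siNeg, with siZic2 at 11.6 and 8.71 CPM. The log2 fold changes of these 3 genes were 0.87, 0.95 and 0.88 (SE 0.34, 0.37 and 0.30). Tfb2m, a transcription factor of mitochondrial DNA, had 14.5 and 16.3 CPM in siWiz and 8.98 and 6.63 CPM in siNeg, with siZic2 at 14.8 and 11.1 CPM, so that siZic2 replicate 1 reached the level of siWiz. Cntnap2, a neurexin-like adhesion protein, had 6.87 and 7.54 CPM in siWiz and 3.82 and 4.42 CPM in siNeg. The remaining gene was Gm21761, of a multicopy family described below.

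Below siNeg, the largest gap after Wiz among genes of at least 5 CPM was that of Irak2, a kinase of interleukin-1 and Toll-like receptor signalling. It had 19.1 and 17.1 CPM in siWiz and 34.7 and 32.8 CPM in siNeg, but 15.8 and 26.03 CPM in siZic2 and 6.32 and 27.4 CPM in siTfap4, so that siZic2 replicate 1 and siTfap4 replicate 1 lay below siWiz. Cbx6, a Polycomb protein that reads methylated histone H3, was the most abundant of the group (chromosome 15, 79823896 to 79834688, minus strand). It had 111 and 143 CPM in siWiz, 189.5 and 190.3 CPM in siZic2, 539 and 321 CPM in siTfap4 and 239 and 221 CPM in siNeg (log2 -0.85, SE 0.27, edgeR adjusted p = 1). Both siWiz libraries were the lowest of the 8. Of the last 300 bases of its transcripts up to 85.4% is shared with the gene model Npcd, so the count is uncertain. Slc7a5, the LAT1 amino acid transporter, had 6.51 and 5.83 CPM in siWiz and 15.5 and 10.3 CPM in siNeg (log2 -1.07, SE 0.31, edgeR adjusted p = 1), and siTfap4 had 7.81 and 6.68 CPM.

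A further 5 genes of this rank were scarcer than Cbx6. Arhgef38, a guanine nucleotide exchange factor, had 6.599 and 6.68 CPM in siWiz and 10.9 and 10.9 CPM in siNeg. Snapc2, a subunit of the complex that starts transcription of small nuclear RNA genes, had 6.69 and 7.26 CPM in siWiz and 11.1 and 11.7 CPM in siNeg. Plxdc2, a plexin domain protein of the cell surface, had 4.55 and 4.39 CPM in siWiz and 7.07 and 9.13 CPM in siNeg. The siZic2 libraries, at 8.66 and 7.85 CPM of Arhgef38 and 8.04 and 7.21 CPM of Snapc2, were nearer to siWiz than to siNeg. Cblb, a ubiquitin ligase that restrains receptor signalling, had 9.27 and 8.404 CPM in siWiz and 13.97 and 14.1 CPM in siNeg. Prr3, a proline-rich zinc finger protein, had 10.6 and 10.2 CPM in siWiz and 16.2 and 16.5 CPM in siNeg. The siTfap4 libraries lay below siWiz in both genes, at 7.44 and 5.74 CPM of Cblb and 2.73 and 5.39 CPM of Prr3.

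**Figure D3:**
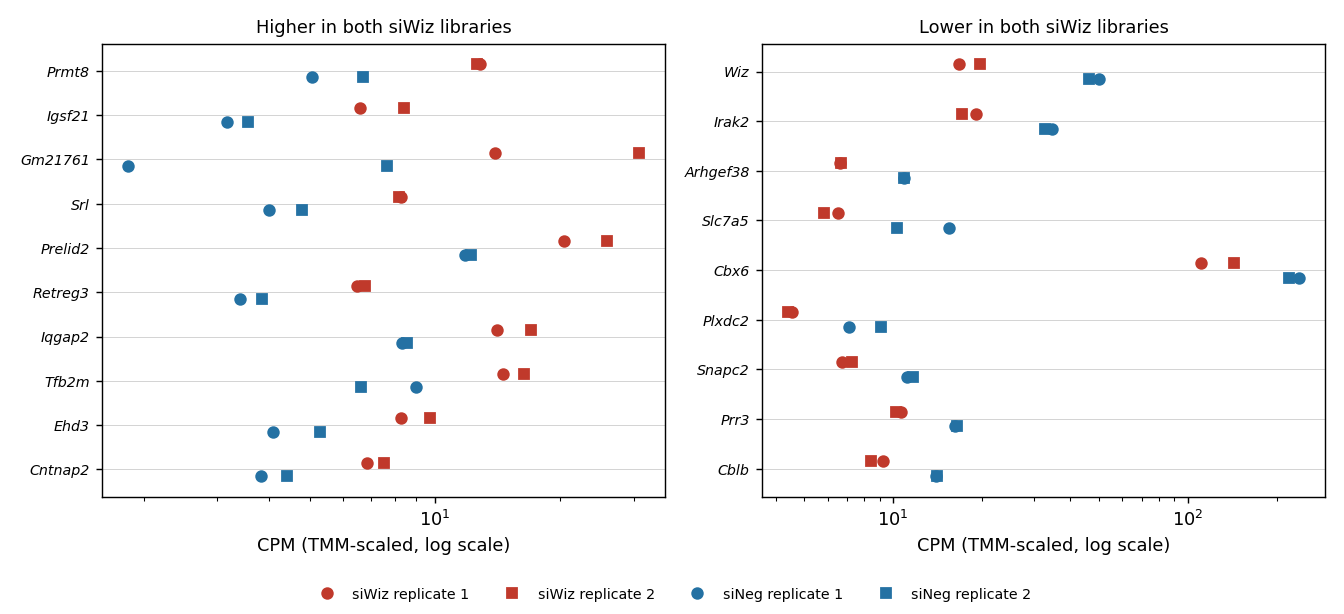
CPM (x axis, log scale) of the 10 genes of at least 5 CPM with the largest gap above siNeg (left) and 9 of those with the largest gap below it (right), with siWiz libraries in red and siNeg libraries in blue, replicate 1 as circles and replicate 2 as squares. The pairs of each side do not overlap in any of the 19 genes, which is how they were chosen, and Gm21761 has the widest spread between duplicates.

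The smallest p-values picked out scarcer transcripts. On the higher side they belonged to Usp17lc, Prmt8, Loxl1, Rgs10 and Ptprt. Usp17lc had 28 and 37 counts in siWiz and 2 and 6 counts in siNeg, or 2.497 and 3.53 CPM and 0.166 and 0.577 CPM (log2 3.02, SE 0.77, edgeR adjusted p = 1). Loxl1, a crosslinker of elastin, had 4.102 and 3.63 CPM in siWiz and 0.914 and 1.25 CPM in siNeg, with siZic2 in between (2.36 and 3.23 CPM). Rgs10, a regulator of G protein signalling, had 2.23 and 3.82 CPM in siWiz and 0.748 and 0.769 CPM in siNeg. In siTfap4 it had 1.86 and 3.05 CPM, so that siTfap4 replicate 2 lay above siWiz replicate 1. Ptprt, a receptor tyrosine phosphatase, had 1.52 and 2.101 CPM in siWiz and 0.333 and 0.288 CPM in siNeg. All 5 were above siNeg in both siWiz libraries, but they were chosen by their p in this same comparison, so that is not support. Usp17lc and Ptprt are so scarce that the siWiz libraries could let them pass the filter on low counts.

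On the lower side the smallest p-values were those of Wiz, Xkrx, a gene model without a name, Krt222 and Coch. Xkrx, of the XK family of membrane proteins, had 5 and 2 counts in siWiz and 20 and 40 counts in siNeg (log2 -3.04, SE 0.71, edgeR adjusted p = 1). Krt222, a keratin-like gene, had 1 and 0 counts in siWiz and 10 and 12 counts in siNeg. Coch, an extracellular protein named for the cochlea, had 2.76 and 1.72 CPM in siWiz and 5.74 and 6.92 CPM in siNeg. The siZic2 libraries had 1.25 and 0.861 CPM of Xkrx and 2.63 and 4.84 CPM of Coch, which lies between the siWiz and siNeg levels in 1 or both libraries.

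The partners of Wiz were not called. Of the 20 listed members and zinc finger partners of the G9a-GLP complex, edgeR and DESeq2 called 0. Without overlap, 1 lay above siNeg and 7 below it (12.3% and 12.8% among all genes), and the median log2 fold change was -0.15, against -0.00107 over all genes. Ehmt1 had 145 and 107 CPM in siWiz and 129 and 112 CPM in siNeg (log2 0.06, 95% confidence interval -0.45 to 0.58). Ehmt2 had 46.8 and 60.5 CPM in siWiz and 62.1 and 61.3 CPM in siNeg (log2 -0.20, interval -0.77 to 0.37), with much higher values in siTfap4 (148 and 89.5 CPM). Zfp644, a zinc finger protein that binds the same enzymes, had 97.3 and 116 CPM in siWiz and 105 and 89.8 CPM in siNeg (log2 0.13, interval -0.35 to 0.61). The siWiz and siNeg values overlapped in Ehmt1 and Zfp644, and in Ehmt2 siWiz replicate 2 was just below both siNeg libraries.

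Ctbp2, the corepressor that Wiz is known to bind, was the member with the smallest p. It had 236 and 222 CPM in siWiz, 301 and 338 CPM in siZic2, 271 and 261 CPM in siTfap4 and 349.8 and 306 CPM in siNeg (log2 -0.52, SE 0.22, edgeR adjusted p = 1). Its siWiz values were the lowest of the 8 libraries. Of the last 300 bases of its transcripts up to 58.2% is shared with an Fgfr2 transcript model. Ctbp1 had 69.8 and 61.98 CPM in siWiz and 77.6 and 71.5 CPM in siNeg. Uhrf1, which reads H3K9 methylation and recruits Dnmt1, had 127 and 109.8 CPM in siWiz and 159 and 139.8 CPM in siNeg, and Dnmt1, the maintenance DNA methyltransferase, had 139.7 and 84.9 CPM in siWiz and 158 and 116 CPM in siNeg. Zfp462, a zinc finger partner of the complex, had 100.5 and 67.9 CPM in siWiz and 137 and 85.8 CPM in siNeg. Replicate 2 was the lower library of both sides for Zfp462, Uhrf1 and Dnmt1.

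The HP1 proteins, which bind methylated H3K9, were abundant and were not called. Cbx1 had 1343 and 1179.6 CPM in siWiz and 1257 and 1283 CPM in siNeg, Cbx5 had 526 and 529.7 CPM in siWiz and 568 and 550.3 CPM in siNeg, and Cbx3 had 165 and 182 CPM in siWiz and 165 and 135 CPM in siNeg. Cbx3 shares most of its transcript end with other genes. The remaining members were the chromodomain genes Cdyl, Cdyl2 and Mphosph8, the zinc finger genes Zfp518a and Zfp518b, and the deacetylase and demethylase subunits Hdac1, Hdac2, Kdm1a and Rcor1. Their log2 fold changes lay between -0.17 (Mphosph8) and 0.11 (Rcor1).

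Of 15 other tested enzymes and cofactors of H3K9 methylation and demethylation, edgeR called 0. Of these 0 lay above siNeg without overlap and 1 below, against 12.3% and 12.8% of all genes. The median log2 fold change was -0.12. The methyltransferase genes Setdb1 and Suv39h2 had the smallest p-values. Setdb1 had 33.6 and 14.4 CPM in siWiz and 45.7 and 24.9 CPM in siNeg, and Suv39h2 had 17.2 and 12.6 CPM in siWiz and 25.1 and 17.2 CPM in siNeg. In both genes and on both sides replicate 2 was below replicate 1. The 15 tested genes of CTCF and cohesin had log2 fold changes from -0.08 to 0.27, with a median of 0.02. Ctcf itself had 216 and 241 CPM in siWiz and 208 and 216 CPM in siNeg (log2 0.11, SE 0.22). Without overlap, 2 of the 15 lay above siNeg and 1 below, against 12.3% and 12.8% of all genes, and edgeR called 0.

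Copies of 4 multicopy gene families stood higher in siWiz than in siNeg. The families were chosen after their values were seen, so their values are a description. They are the 5 Usp17l genes on chromosome 7, the 8 Zscan4 gene models on chromosome 7, 19 gene models of a cluster on chromosome 12, and 12 of a cluster on chromosome 13 that includes Tcstv1 and Tcstv3, genes known from 2-cell embryos. In all, 2, 2, 7 and 3 members passed the filter on low counts in the order named, and since the siWiz libraries could let a member pass, no count over these 14 is given as support. Members share sequence, so a read may be assigned to the wrong copy, and the summed CPM of a family over all members, tested or not, is given first.

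The 5 Usp17l genes summed to 6.599 and 11.3 CPM in siWiz, 1.11 and 2.47 CPM in siZic2, 1.98 and 7.504 CPM in siTfap4 and 1.16 and 3.46 CPM in siNeg. Replicate 1 of siWiz was above both siNeg libraries, and siTfap4 replicate 2 was above siWiz replicate 1. Usp17la (chromosome 7, 104857009 to 104862667, plus strand) had 25 and 68 counts in siWiz and 11 and 26 counts in siNeg, and Usp17lb had 11 and 4 counts in siWiz and 1 and 0 counts in siNeg. Usp17lc lies at chromosome 7, 103415072 to 103419880, plus strand. All 5 genes had more counts in the 2 siWiz libraries together than in the 2 siNeg libraries. Without overlap in CPM, 4 of the 5 lay above siNeg and 0 below. Among all tested genes 12.3% lay above and 12.8% below on log2 CPM with the prior count. The 5 include genes that did not pass the filter, so the 2 sets differ. The family was chosen from these values, so these counts are not support. The Usp17lc and Usp17la transcript ends share less than 50% of their bases with any other genes.

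The 8 Zscan4 models summed to 3.48 and 8.404 CPM in siWiz, 1.39 and 3.44 CPM in siZic2, 0.248 and 4.34 CPM in siTfap4 and 1.08 and 2.69 CPM in siNeg. Both siWiz values were above both siNeg values, but siTfap4 replicate 2 was above siWiz replicate 1 and siZic2 replicate 2 just below it. Zscan4c (chromosome 7, 11005745 to 11010547, plus strand), which encodes a protein that lengthens telomeres in mouse stem cells, had 10 and 48 counts in siWiz and 4 and 12 counts in siNeg, so that siWiz replicate 1 lay below siNeg replicate 2. Zscan4d had 18 and 21 counts in siWiz and 8 and 11 counts in siNeg. Zscan4b and Zscan4f had 0 counts in every library. Up to 72.0% of the last 300 bases of Zscan4c and 55.9% of those of Zscan4d are shared with other Zscan4 copies.

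The chromosome 12 cluster summed to 13.6 and 27.3 CPM in siWiz, 2.49 and 9.04 CPM in siZic2, 4.46 and 13.2 CPM in siTfap4 and 3.41 and 7.303 CPM in siNeg. Of its 19 models 14 had any count, 12 had more counts in siWiz and 1 had fewer. Without overlap, 8 of the 19 lay above siNeg and 1 below. By the same measure 3 of 8 Zscan4 models and 2 of 12 chromosome 13 models lay above, and 0 below. Among all tested genes 12.3% lay above and 12.8% below, but the family counts include members that did not pass the filter. They describe families chosen by their values. Gm5039 had 33 and 74 counts in siWiz and 7 and 16 counts in siNeg, and Gm8300 had 25 and 52 counts in siWiz and 14 and 10 counts in siNeg. The chromosome 13 cluster summed to 19.4 and 52.8 CPM in siWiz, 3.88 and 13.9 CPM in siZic2, 4.84 and 20.5 CPM in siTfap4 and 2.99 and 12.1 CPM in siNeg, with siTfap4 replicate 2 above siWiz replicate 1. It rested mainly on Gm21761 (chromosome 13, 119912095 to 119929272, minus strand), with 156 and 324 counts in siWiz and 22 and 80 counts in siNeg (log2 2.25, SE 0.74, edgeR adjusted p = 1). Gm20767 had 36 and 98 counts in siWiz and 8 and 19 counts in siNeg, and Gm21818 had 24 and 114 counts in siWiz and 4 and 25 counts in siNeg. In Gm21818 siWiz replicate 1 lay below siNeg replicate 2.

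**Figure D4:**
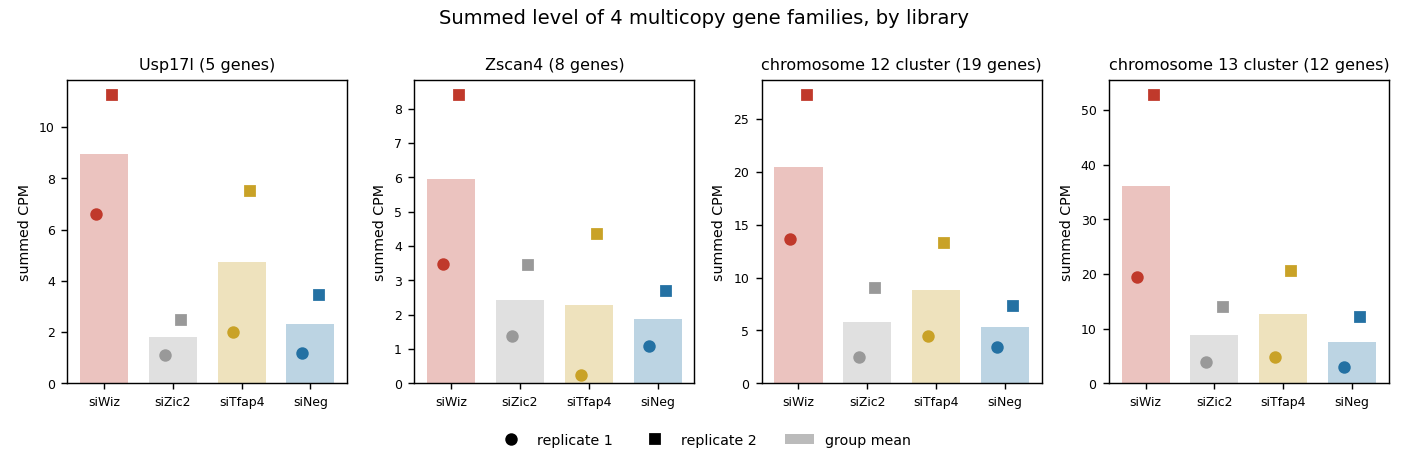
Summed CPM (y axis, from 0) of the Usp17l, Zscan4, chromosome 12 and chromosome 13 families in the 8 libraries, with bars at the mean of 2 libraries, circles for replicate 1 and squares for replicate 2. Both siWiz libraries lie above both siNeg libraries in all 4 families, and replicate 2 lies above replicate 1 in every group.

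The mean summed CPM of siWiz was 3.86 times that of siNeg for Usp17l, 3.15 times for Zscan4, 3.82 times for the chromosome 12 cluster and 4.78 times for the chromosome 13 cluster. In all 4 families and all 4 groups replicate 2 was higher than replicate 1, so the replicate number moved with the level as well as the siPOOL. Leaving out siWiz replicate 2 gave ratios of 2.85, 1.84, 2.55 and 2.57 in the same order, and leaving out siNeg replicate 1 gave 2.61, 2.23, 2.83 and 3.01. Leaving out siNeg replicate 2 gave the highest ratios, 7.66, 5.48, 5.99 and 12.04. In bulk RNA, more cells in the 2C-like state and more transcript per cell cannot be told apart. A separate list of 2C-like genes gave a mixed picture: 4 of 16 genes passed the filter. These were Zscan4c, Zscan4d and Usp17la, which are also family members, and Zfp809, a zinc finger gene at 425 and 427 counts in siWiz and 536 and 479 counts in siNeg. Zfp352, known from 2-cell embryos, had 7 and 9 counts in siWiz and 2 and 2 counts in siNeg, and Duxf3, the mouse Dux gene, had 0 counts in all 4 libraries.

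A lower limit on counts changed what was called. With every gene of at least 1 count kept, 26969 genes were tested and edgeR called 6 higher and 6 lower in siWiz. The higher genes were Gm21761, Gm20767, Gm21818, Usp17lc, Gm5039 and Gm8994, with adjusted p-values of 4.79e-06, 0.0118, 0.0282, 0.0345, 0.0466 and 0.0466 in edgeR. The first 5 belong to the families above, and Gm8994 had 2.68 and 6.68 CPM in siWiz and 0.166 and 1.83 CPM in siNeg. The lower genes were Wiz (adjusted p = 0.0118 in edgeR), Ccn2, Myc, Xkrx, Sdhd and 1 pseudogene. Ccn2, a secreted matrix protein and target of YAP, had 6.69 and 1.34 CPM in siWiz and 22.6 and 3.94 CPM in siNeg. Sdhd, a subunit of mitochondrial complex II, had 3.03 and 1.34 CPM in siWiz and 14.5 and 0.865 CPM in siNeg. For both, siNeg replicate 1 was far above the other 3 libraries and siNeg replicate 2 lay below siWiz replicate 1.

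The lists of germline, protocadherin, globin and imprinted genes held no call. Of 32 listed germline genes 19 passed the filter and edgeR called 0, with 1 above siNeg and 4 below it without overlap (12.3% and 12.8% of all genes), and a median log2 fold change of -0.10. Stra8, which starts meiosis, had 61.2 and 168 CPM in siWiz and 47.7 and 155 CPM in siNeg, and Dazl, an RNA-binding protein of germ cells, had 9.72 and 7.35 CPM in siWiz and 13.1 and 8.94 CPM in siNeg. Taf9b, a TFIID-related factor, had the smallest p of the list with 4 and 4 counts in siWiz and 19 and 8 counts in siNeg (log2 -1.65, edgeR adjusted p = 1). The 5 listed Magea genes, which are tumour and germline antigens, had 0 counts in all 4 libraries.

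Clustered protocadherins, cell surface proteins whose choice of promoter depends on CTCF, were mostly too scarce to test. Of 58 listed, 9 passed the filter, 1 lay above siNeg without overlap and 1 below (12.3% and 12.8% of all genes), and edgeR called 0. Pcdhga12 had 8 and 8 counts in siWiz and 32 and 18 counts in siNeg (log2 -1.56, edgeR adjusted p = 1), and Pcdhga3 had 11 and 13 counts in siWiz and 11 and 3 counts in siNeg. The gamma genes share their last exons, so that a 3′ count cannot be assigned to 1 of them. Globin genes, a known site of G9a action in blood cells, held at most 1 count in any of the 4 libraries. Of 3 tested genes of the globin and erythroid list, the repressor gene Bcl11a had 17.9 and 18.6 CPM in siWiz and 17.7 and 14.9 CPM in siNeg, and Gata1 had 10 and 10 counts in siWiz and 14 and 20 counts in siNeg.

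Of 26 tested imprinted genes edgeR called 0, while 4 lay above siNeg without overlap and 1 below, against 12.3% and 12.8% of all genes. The median log2 fold change was -0.10. Cdkn1c, a cyclin-dependent kinase inhibitor expressed from the maternal allele, had 49.9 and 62.3 CPM in siWiz, 31.05 and 33.1 CPM in siZic2, 27.03 and 45.8 CPM in siTfap4 and 32.1 and 39.98 CPM in siNeg (log2 0.64, SE 0.27, edgeR adjusted p = 1). Both siWiz values were the highest of the 8. Usp29, which is paternally expressed, had 11 and 17 counts in siWiz and 33 and 24 counts in siNeg. The long RNA Meg3 had 657 and 596 CPM in siWiz and 1006 and 583 CPM in siNeg, where siNeg replicate 1 stood apart from the other 3.

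Most pluripotency factors had slightly lower values in siWiz, and none was called. Of 14 general factors edgeR called 0 and 7 lay below siNeg without overlap, against 12.8% of all genes, with 0 above it. The median log2 fold change was -0.16, and 2 of 14 were above 0. Lin28a, an RNA-binding protein that blocks let-7 microRNAs, had 42.7 and 49.3 CPM in siWiz, 47.7 and 54.97 CPM in siZic2, 125 and 95.7 CPM in siTfap4 and 63.4 and 62.5 CPM in siNeg (log2 -0.45, SE 0.23, edgeR adjusted p = 1). Pou5f1, the core factor Oct4, had a log2 fold change of -0.36 (SE 0.25) from the levels given at the start. Zfp42, a zinc finger marker of undifferentiated cells also called Rex1, had a log2 fold change of 0.38 (SE 0.27). The 2 sides did not overlap in Pou5f1 and Lin28a and overlapped in Zfp42.

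Of 21 naive pluripotency factors edgeR called 0, with 1 above and 4 below siNeg without overlap (12.3% and 12.8% of all genes) and a median log2 fold change of -0.10. Klf2, a Kruppel-like factor, had 522 and 529 CPM in siWiz and 645 and 659 CPM in siNeg (log2 -0.31, SE 0.23). Fgf4, the autocrine growth factor of these cells, had 282 and 276 CPM in siWiz and 212 and 276 CPM in siNeg and was the 1 member above. Nr0b1, an orphan nuclear receptor, had 60.9 and 35.5 CPM in siWiz and 151 and 41.2 CPM in siNeg, so that siNeg replicate 2 lay between the siWiz values. Formative and primed markers lay on both sides of 0, with 2 of 15 above and 2 below siNeg without overlap and a median of 0.04. Pou3f1, the POU factor Oct6, had 10.6 and 12.3 CPM in siWiz and 8.65 and 5.19 CPM in siNeg (log2 0.72, edgeR adjusted p = 1), and Sox4 had 14.6 and 11.7 CPM in siWiz and 10.97 and 7.399 CPM in siNeg.

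Markers of other cell types were tested as lists of values, and edgeR called none of those that passed the filter. Against the counts without overlap stand 12.3% of all genes above siNeg and 12.8% below it, and with 4 to 14 markers a list 1 marker moves a share widely. Of 10 tested trophectoderm markers 1 lay above and 4 below siNeg without overlap (median log2 -0.32). Their summed level was 211 and 271 CPM in siWiz and 263 and 337 CPM in siNeg, mostly from Tfap2c, and the defining gene Cdx2 had 2 and 0 counts in siWiz and 3 and 1 counts in siNeg. Of 14 primitive endoderm markers 1 lay above and 4 below (median -0.07), with a sum of 547 and 539 CPM in siWiz and 719 and 605 CPM in siNeg. The defining factor Gata6 had 26 and 10 counts in siWiz and 14 and 5 counts in siNeg, and Gata4 had 12 and 10 counts in siWiz and 17 and 20 counts in siNeg. Neural markers summed to 105 and 132 CPM in siWiz and 118 and 135 CPM in siNeg (7 tested, 1 above and 2 below siNeg without overlap, median -0.20). Neurog2, a proneural factor, had 0 counts in these 4 libraries.

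Mesoderm and blood vessel markers summed to 90.1 and 134 CPM in siWiz and 120.0 and 119.7 CPM in siNeg (6 tested, 0 without overlap, median 0.17), nearly all from Pecam1, which stem cells also express. Of 4 tested fibroblast markers 0 lay above and 2 below siNeg without overlap, against 12.3% and 12.8% of all genes (median -0.46). Fibroblast markers summed to 327 and 264 CPM in siWiz and 547 and 344 CPM in siNeg. Almost all of that sum was Fn1, the matrix protein fibronectin, at 314 and 253 CPM in siWiz and 531 and 331 CPM in siNeg (log2 -0.60, SE 0.27, edgeR adjusted p = 1). The collagen genes Col1a1, Col1a2 and Col3a1, which define fibroblasts, held at most 5 counts in any of the 4 libraries, and Col3a1 and Postn were at 0.

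**Figure D5:**
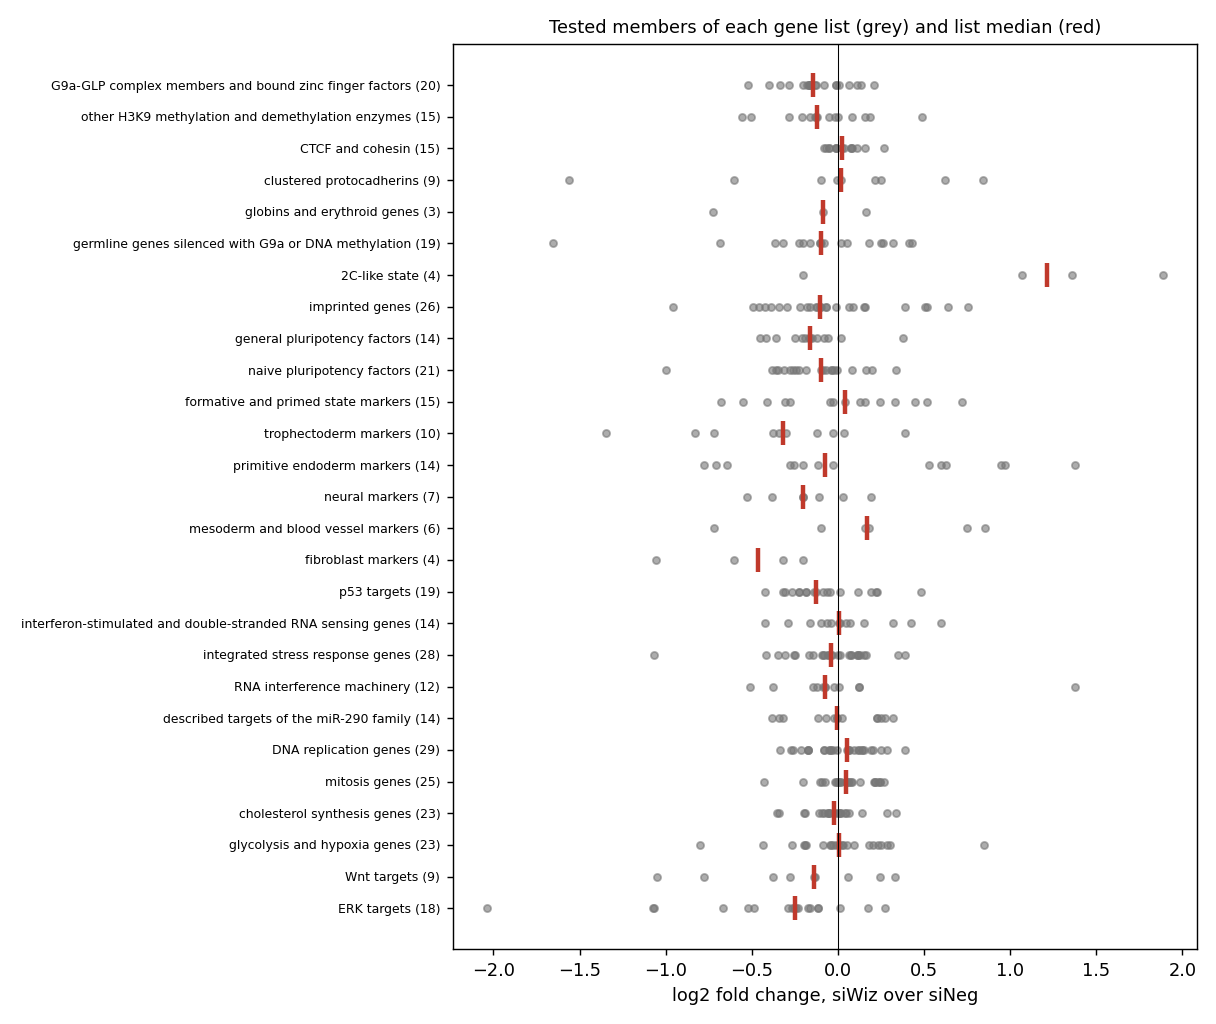
Log2 fold changes of siWiz over siNeg (x axis) for the tested members of 27 gene lists (grey points, number tested in brackets) and the list medians (red bars). The median of the 2C-like list, 1.21 over 4 genes, is the only one above 0.2, and the medians of trophectoderm and fibroblast markers are below -0.3.

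ERK target genes mostly had lower values in siWiz. Of 18 tested, edgeR called 0, 6 lay below siNeg without overlap and 0 above (12.8% and 12.3% of all genes), and the median log2 fold change was -0.25. Phlda1, an immediate early gene, had 11.1 and 8.499 CPM in siWiz and 14.4 and 16.7 CPM in siNeg (log2 -0.67, SE 0.30, edgeR adjusted p = 1). Dusp6, a phosphatase that switches off ERK, had 130.0 and 88.9 CPM in siWiz and 180.3 and 134 CPM in siNeg. Myc, a growth-promoting transcription factor, had 2.23 and 0.955 CPM in siWiz and 11.2 and 1.92 CPM in siNeg (log2 -2.04, SE 0.68, edgeR adjusted p = 1). Spred2, an inhibitor of the pathway, had 12.7 and 4.77 CPM in siWiz and 27.8 and 8.84 CPM in siNeg. Myc and Spred2 rested on siNeg replicate 1, and siNeg replicate 2 lay between the 2 siWiz values in both.

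Wnt targets showed no call either, with 0 of 9 called by edgeR, 0 above and 1 below siNeg without overlap (12.3% and 12.8% of all genes) and a median log2 fold change of -0.14. Notum, a secreted inhibitor of Wnt proteins, had 45.3 and 19 CPM in siWiz and 111 and 22.2 CPM in siNeg, and Cdx1, a homeobox target, had 1.96 and 1.91 CPM in siWiz and 3.49 and 3.17 CPM in siNeg. Among the described targets of the deleted miR-290 family, 2 of 14 lay above and 3 below siNeg without overlap, and the median was -0.01. Cdkn1a, the cell cycle inhibitor p21, had 146 and 198 CPM in siWiz and 155 and 139.9 CPM in siNeg. edgeR called 0 of these targets, and siWiz and siNeg cells lack the microRNAs alike.

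Stress and antiviral genes showed no call. Of 28 tested genes of the integrated stress response 3 lay above and 4 below siNeg without overlap, against 12.3% and 12.8% of all genes (median log2 -0.04), and Chac1, which degrades glutathione, had 127 and 150.3 CPM in siWiz and 87.5 and 125 CPM in siNeg. Slc7a5, described above, belongs to that list. Of 19 p53 targets 1 lay above and 5 below (median -0.13), and Btg2, an antiproliferative gene, had 19.2 and 13.9 CPM in siWiz and 22.2 and 22.2 CPM in siNeg. Of 14 interferon-stimulated and double-stranded RNA sensing genes 4 lay above and 1 below (median 0.01). Of the 4, 3 were Oas1a, Oas2 and Oas3, sensors of double-stranded RNA, and Oas2 had 5.44 and 6.49 CPM in siWiz and 3.99 and 4.901 CPM in siNeg. Ddx58, the sensor RIG-I, had 32.9 and 21.7 CPM in siWiz and 40.3 and 32.8 CPM in siNeg.

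Of 12 tested genes of RNA interference 1 lay above and 2 below siNeg without overlap, against 12.3% and 12.8% of all genes (median log2 -0.07). Tarbp2, a partner of Dicer, had 4.01 and 3.53 CPM in siWiz and 0.998 and 1.92 CPM in siNeg (log2 1.38, SE 0.49, edgeR adjusted p = 1), and 79.3% of its transcript end is shared with 2 other gene models. Ago1, an Argonaute protein, had 44.8 and 35.1 CPM in siWiz and 57.4 and 46.4 CPM in siNeg. Growth lists held no call. DNA replication genes had 1 of 29 above and 3 below without overlap (median 0.05), and mitosis genes 3 of 25 above and 0 below (median 0.05). Ccnb1, the mitotic cyclin B1, had 458 and 499 CPM in siWiz and 323 and 474 CPM in siNeg, and Orc1, a subunit of the origin recognition complex, had 47.9 and 48.7 CPM in siWiz and 62.6 and 59.2 CPM in siNeg. Cholesterol synthesis genes had 1 of 23 above and 2 below (median -0.02). Glycolysis and hypoxia genes had 4 of 23 above and 0 below (median 0.01), with the pyruvate kinase gene Pkm at 495 and 499.9 CPM in siWiz and 349 and 459.5 CPM in siNeg. In all 27 lists together 10 of 416 tested memberships (2.40%) had an unadjusted p under 0.05, near the 1.82% of all genes. Of these 2 were higher (0.481%) and 8 lower (1.92%), against 0.949% and 0.867% of all genes, and edgeR and DESeq2 called 0.

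Genes of at least 5 CPM whose siWiz duplicates differed more than those of every other group were ranked by that difference. The first 5 were all lower in siWiz replicate 2, and 2 of them were pseudogenes. Genes whose duplicates differed more in another group are not covered. Snhg6, a host gene of small nucleolar RNA, had 39.8 and 6.78 CPM in siWiz, 36.2 and 62.8 CPM in siZic2, 3.72 and 2.697 CPM in siTfap4 and 60.6 and 13.7 CPM in siNeg. Hnrnph2, a splicing factor gene, had 9.99 and 1.53 CPM in siWiz and 9.39 and 2.88 CPM in siNeg, and Gpn2, a GTPase of RNA polymerase assembly, had 7.04 and 0.668 CPM in siWiz and 13.2 and 2.59 CPM in siNeg. The siTfap4 libraries held 1.74 and 2.11 CPM of Hnrnph2 and 0.372 and 0.117 CPM of Gpn2. In these 3 genes replicate 2 of siNeg was also below replicate 1, and the siZic2 duplicates showed no such order for Snhg6 and Gpn2. For these 3 genes replicate 2 of both siWiz and siNeg was nearer to the siTfap4 level than replicate 1, as on the first principal component, and its part in the comparison was not tested.

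A second comparison set siWiz against the mean of siZic2 and siNeg, 4 libraries that did not receive the Wiz siPOOL. It shares the siWiz and siNeg libraries with the first. edgeR called 0 genes (0%), with 440 at an unadjusted p under 0.05. Wiz had a log2 fold change of -1.28 in it, Prmt8 of 1.14, Usp17lc of 2.71, Gm21761 of 2.13, Cbx6 of -0.72 and Slc7a5 of -0.90. Irak2 and Tfb2m, with 1 siZic2 library at or past the siWiz level, had -0.55 and 0.61 in it.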

How the data were processed

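The deposited values are raw counts per Ensembl gene, not normalized, for 8 libraries of QuantSeq 3′ mRNA-Seq FWD, per the labels' protocols. Trim Galore and the GRCm38 build are named in the submitters' processing notes. Not given in the sources used here are the aligner, the counter, the strand setting and any molecular identifiers. Symbols and positions of 55240 of 55421 genes came from GENCODE M21. PCR reads are not known to be independent molecules.

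Counts were filtered with filterByExpr, scaled by TMM and fitted with edgeR 4.0.16 (R 4.3.3; checked on simulated data) over all 8 libraries, without a block. Log2 CPM used a prior count of 2. DESeq2 1.42.0, other scalings, filters and sample sets, the replicate block and leaving out each library were alternatives. No 2 libraries of a group agreed within counting noise. Genes named were the targeted genes and the 10 largest gaps in each direction at a mean of at least 5 CPM. Also named were the 5 smallest p in each direction, genes called by either tool and up to 3 smallest p per list. The rule further took all G9a-GLP list members, genes within 200 kb of Wiz, and 5 genes by differences between siWiz duplicates. These 5 had the largest such difference among genes of at least 5 CPM where it exceeded that of every other group. Others, such as family members, Dusp6, Fgf4, Stra8 and Dazl, were chosen after their values were seen. Some genes that the rule names are not reported here. Members and lists were chosen with earlier results of these data known. Shared transcript ends were found by matching 40-base words in the last 300 bases of GENCODE transcripts.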

Additional observations from a re-analysis of the deposited data

How the results depend on the processing

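With no filter beyond 1 count, edgeR called 6 genes higher and 6 lower, Wiz among them (log2 -1.40, adjusted p = 0.0118), and 30 genes in the comparison with the mean of siZic2 and siNeg. DESeq2 called 1 gene lower, Wiz (log2 -1.40), and 1 in that second comparison. The other scalings, the minimum of 5 CPM, the siWiz and siNeg libraries alone, siTfap4 left out and each library left out in turn called 0. Genes without overlap numbered 2805 higher and 2982 lower with no filter, 1134 and 1202 at 5 CPM, and 1911 to 5385 and 1921 to 5439 with 1 library left out, where a lone library overlaps less often by construction. The labels do not tie a replicate number to a shared batch or day. The numbers were not taken as pairs because no block is named. The replicate differences correlated at 0.33 between siWiz and siNeg, the highest of all pairs of groups. They correlated at -0.04 between siWiz and siTfap4 and at 0.13 to 0.27 between the other 4 pairs of groups. These values do not settle whether siWiz and siNeg libraries of 1 number are a pair. With the replicate number as a block edgeR called 0 genes, and 1 in the second comparison. Of 2 blocked fits chosen after seeing the data, siWiz and siNeg alone gave 6 higher and 5 lower. Wiz was at -1.40 in it (edgeR adjusted p = 8.79e-05). Leaving out siTfap4 gave 1 higher (Gm21761), 1 lower (Wiz, at -1.41, edgeR adjusted p = 0.0389) and 2 in the second comparison.

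Leaving out 1 library turned the direction of 12 named genes. Their log2 fold changes ranged from -0.17 to 0.26 for Ehmt1, -0.97 to 0.070 for Zic2, -3.55 to 0.59 for Gpn2, -2.01 to 1.02 for Hnrnph2, -2.46 to 0.78 for Snhg6, -1.65 to 0.24 for Nr0b1, -1.81 to 0.55 for Notum, -3.31 to 0.050 for Ccn2, -2.72 to 1.35 for Sdhd, -2.60 to 0.34 for Pmpcb, -2.27 to 0.16 for Ctnnd1 and -2.33 to 0.37 for Pfn1. Pmpcb, Ctnnd1 and Pfn1 were called lower in the blocked fit of siWiz and siNeg alone. All these except Ehmt1, Hnrnph2 and Snhg6 turned without siNeg replicate 1 alone; Ehmt1 turned without siWiz replicate 1 (-0.17) or siNeg replicate 2 (-0.04), and Hnrnph2 (0.69) and Snhg6 (0.09) also without siWiz replicate 2. The median of the 2C-like list was 0.34 without siWiz replicate 2. At a minimum of 5 CPM it was -0.20, which was the value of Zfp809 alone, since the family members of the list fell below that minimum. The causes were not tested. Scarce transcripts limit the precision, and intervals cover 2 libraries a group.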

Other observations

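Several transcripts differed between the siNeg duplicates by more than between siWiz and siNeg. Pmpcb, which encodes part of the peptidase that trims imported mitochondrial proteins, had 44.7 and 9.74 CPM in siWiz, 67.4 and 91.1 CPM in siZic2, 0.868 and 2.23 CPM in siTfap4 and 96.02 and 21.8 CPM in siNeg. Ctnnd1, the cadherin-binding p120 catenin, had 76.3 and 20.1 CPM in siWiz, 111 and 119.7 CPM in siZic2, 2.48 and 2.11 CPM in siTfap4 and 151 and 43.7 CPM in siNeg. Pfn1, which binds actin monomers, had 25.5 and 6.398 CPM in siWiz, 42.8 and 54.3 CPM in siZic2, 0.744 and 0.586 CPM in siTfap4 and 51.5 and 12.5 CPM in siNeg. In all 3 genes replicate 2 was below replicate 1 in siWiz and in siNeg and not in siZic2, and siTfap4 was lowest. Naive factors with the same order in siWiz and siNeg were Nr0b1 and Spp1, with Spp1 at 270.4 and 190.2 CPM in siWiz and 349.6 and 251 CPM in siNeg.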
